A study of Homo sapiens with 4 samples.

Results

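The genes described here are 10 genes of the NF-kB system, 5 that encode the subunits (NFKB1, NFKB2, REL, RELA and RELB) and 5 that encode inhibitors or regulators (TNFAIP3, NFKBIA, NFKBIB, NFKBIE and NFKBIZ). They were chosen by name, through the array annotation, and have 13 of the 24460 gene probes and make up 10 of the 18639 named genes. RNA came from HEK293 cells, a widely used human cell line derived from embryonic kidney, in 4 groups of 1 array each. The groups were LGP2-4KR transgenic cells (4KR cells below) at 12 hr and at 0 hr, and LGP2 transgenic cells at 12 hr and at 0 hr, where 12 hr means transfection with a lipid reagent and short poly I:C, a double-stranded RNA mimic, at 100 ng/ml, and 0 hr means unstimulated. LGP2, a helicase related to the RNA sensor RIG-I, is encoded by DHX58. All 4 groups therefore carried an LGP2 transgene, and no array came from cells without one or from mock-transfected cells. What the abbreviation 4KR stands for, which promoter drove the transgenes and whether a line was 1 clone are not given in the sources used here.

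NF-kB is a dimer of Rel-family subunits that is held in the cytoplasm by inhibitor of kappa B (IkB) proteins. RNA sensors that act through the adaptor MAVS, like many receptors, lead to the IkB kinase (IKK), which marks the IkB proteins for destruction and frees the dimer to enter the nucleus. Several of the genes it switches on encode its own inhibitors and subunits, which makes them a feedback loop.

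With 1 array per group, a ratio has no replicate check, so genes were counted past a fixed ratio of 2-fold. A test was possible only over both lines together, with the lines standing in for replicates of the stimulation, and it takes any difference between the lines' responses as error. Each gene is given by its deposited intensity, a linear value in units in which the median of each array is 25, and by its normalized log2 intensity. The log2 ratios come from the normalized values, in which an offset of 50 scanner units makes the ratios of dim genes smaller than those of the deposited intensities. An effect of poly I:C cannot be told apart from that of the transfection or of 12 hr in culture. In bulk RNA, a change in the number of responding cells and a change in RNA per cell cannot be told apart either.

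DHX58 had a deposited intensity of 42.6 at 12 hr and 22.8 at 0 hr in 4KR cells, and of 51.0 at 12 hr and 41.4 at 0 hr in LGP2 cells. On the normalized scale its log2 ratio was 0.39 in 4KR cells and 0.01 in LGP2 cells. The DHX58 probe shares array block 24 with that of NFKBIA. The median difference of the responses (4KR minus LGP2) there was 0.20, as described below. The DHX58 values are not corrected for block, so they do not settle whether the lines differ. The probe may or may not read the transgene, so these values do not check the labels. Of 7 genes known to be expressed in HEK293 cells, the 6 on the array were detected on all 4 arrays, with summed intensities of 4465 at 12 hr and 6196 at 0 hr in 4KR cells, and 4756 and 5924 in LGP2 cells. Of the markers of other cell types, the defining genes PTPRC (leukocytes), PECAM1 (endothelial cells) and ALB (hepatocytes) were detected on 0 arrays, while CD3E, CD14 and LYZ of the leukocyte list and APOA1 of the hepatocyte list were detected on 4 arrays and CDH5 of the endothelial list on 3. The summed intensity of the 4 leukocyte genes was 41.9 at 12 hr and 40.8 at 0 hr in 4KR cells, and 47.3 and 40.4 in LGP2 cells. That of the 2 hepatocyte genes was 4.20 and 3.30 in 4KR cells, and 6.30 and 2.62 in LGP2 cells, and that of the 2 endothelial genes ran from 1 to 2.40. All 3 keratinocyte genes were detected, and their summed intensity was 283 at 12 hr and 208 at 0 hr in 4KR cells, and 269.5 and 212 in LGP2 cells. The share of gene probes detected was also higher at 12 hr, 88.0% in 4KR and 89.2% in LGP2 cells against 83.8% and 83.2% at 0 hr. The part of these shifts in the results below was not tested.

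TNFAIP3 and NFKBIA, which encode the feedback inhibitors A20 and IkB-alpha, were the 2 of the 10 genes that were at least 2-fold higher at 12 hr, and they were so in both lines. Next came the subunit genes RELB, NFKB1 and REL, followed by the inhibitor genes NFKBIB and NFKBIZ with ratios well under 2-fold. NFKBIE, NFKB2 and RELA had ratios near 0. Over all genes, 0.411% of those tested in 4KR cells and 0.438% in LGP2 cells were at least 2-fold higher. At least 1.5-fold higher were 3 of the 10 in 4KR cells, where 1.59% of all genes were, and 5 of the 10 in LGP2 cells, where 1.88% were. None of the 10 was 2-fold lower in either line, a call made for 0.00604% of genes in 4KR and 0.012% in LGP2 cells. The median log2 ratio of the 10 genes was 0.38 in 4KR cells and 0.51 in LGP2 cells, against -0.01 in each line for the 15738 genes detected on all 4 arrays.

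**Figure D1:**
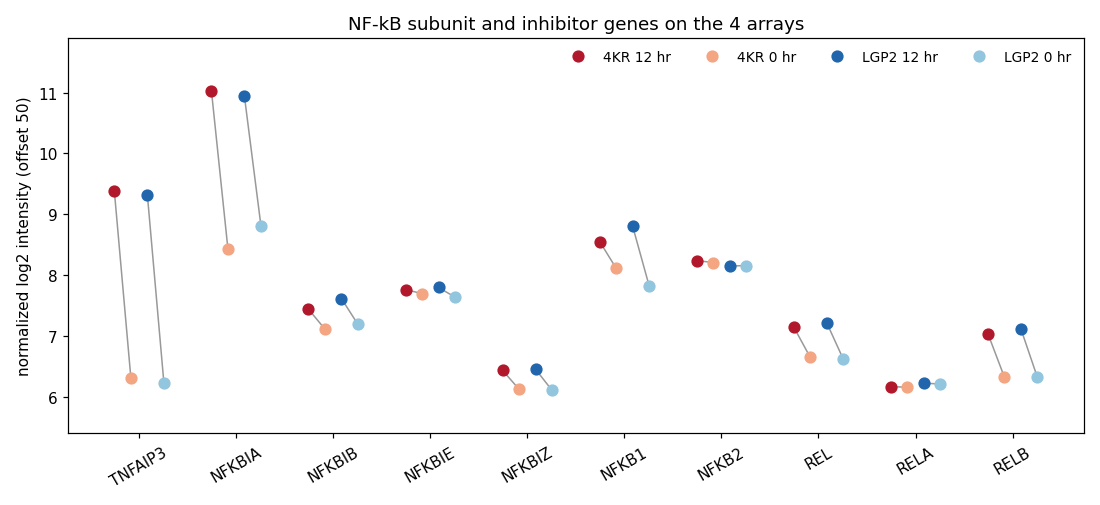
Normalized log2 intensity (vertical axis) of the 10 genes on the 4 arrays, 1 point per array, with 12 hr joined to 0 hr within each line. TNFAIP3 and NFKBIA stand out by their distance between 12 hr and 0 hr; levels are to be compared within a gene, since genes were read by different probes.

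TNFAIP3 encodes A20, a ubiquitin-editing enzyme that shuts off signalling upstream of IKK. Its deposited intensity was 315 at 12 hr and 12.4 at 0 hr in 4KR cells, and 329 at 12 hr and 10.2 at 0 hr in LGP2 cells. The levels before stimulation were low in both lines, and both stimulated arrays were far above them. The normalized log2 intensities were 9.38 at 12 hr and 6.31 at 0 hr in 4KR cells, and 9.32 and 6.23 in LGP2 cells. These gave log2 ratios of 3.07 and 3.08, or 8.38-fold and 8.48-fold. TNFAIP3 ranked 11th of 16564 genes in 4KR cells and 12th of 16675 in LGP2 cells. In limma over both lines it rose by 3.08 on the log2 scale (SE 0.03, higher in 2 of 2 lines), with a Benjamini-Hochberg adjusted p of 0.00184.

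NFKBIA encodes IkB-alpha, the inhibitor that is resynthesised after NF-kB activation and returns the dimers to the cytoplasm. Its deposited intensity was 983 at 12 hr and 141 at 0 hr in 4KR cells, and 1037 at 12 hr and 196 at 0 hr in LGP2 cells. Unlike TNFAIP3, it had a signal well above the array median of 25 before stimulation. The log2 ratio was 2.60 in 4KR cells and 2.13 in LGP2 cells, or 6.06-fold and 4.36-fold, the 14th and the 25th highest of all genes in the 2 lines. In limma it rose by 2.36 (SE 0.13, higher in 2 of 2 lines, adjusted p = 0.0235).

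The promoters of these 2 genes are shown because their sequence carries the kind of site that NF-kB binds. Each is the window of 250 bases before to 50 after the RefSeq gene start, in build GRCh38.p14, on the gene's own strand, at chr6:137867009-137867308 on the plus strand for TNFAIP3 and at chr14:35404700-35404999 on the minus strand for NFKBIA. Capitals mark matches to the NF-kB consensus site of 10 bases, searched on both strands, in which overlapping matches run together.
TNFAIP3: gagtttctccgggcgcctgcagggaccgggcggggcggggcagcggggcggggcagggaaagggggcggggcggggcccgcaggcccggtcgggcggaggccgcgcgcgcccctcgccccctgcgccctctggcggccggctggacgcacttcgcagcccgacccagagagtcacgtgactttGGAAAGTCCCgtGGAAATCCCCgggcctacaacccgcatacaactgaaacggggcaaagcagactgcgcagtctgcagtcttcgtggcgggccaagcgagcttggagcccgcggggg
NFKBIA: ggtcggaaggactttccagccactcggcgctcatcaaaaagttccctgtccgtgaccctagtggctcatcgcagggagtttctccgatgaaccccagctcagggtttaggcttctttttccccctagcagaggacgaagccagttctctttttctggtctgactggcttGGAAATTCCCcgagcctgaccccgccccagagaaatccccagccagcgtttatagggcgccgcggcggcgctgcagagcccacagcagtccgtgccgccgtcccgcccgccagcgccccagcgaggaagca
TNFAIP3 had 2 matches, at positions -67 to -58 and -55 to -46 from the start, and NFKBIA had 1, at -81 to -72. On the opposite strand these read GGGACTTTCC and GGGGATTTCC for TNFAIP3, and GGGAATTTCC for NFKBIA. A match was present in 11.3% of 35116 promoter windows of this length and 2 or more in 2.04%. A match describes the sequence and does not show that the factor was bound.

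Among the other inhibitor genes, ratios were small. NFKBIB encodes IkB-beta, and its deposited intensity was 65.1 at 12 hr and 40.4 at 0 hr in 4KR cells, and 82.3 and 44.0 in LGP2 cells. Its log2 ratio was 0.33 and 0.42 in the same lines. The annotation lists the NFKBIB probe against a non-coding transcript, so it may not read the coding form alone. NFKBIZ encodes IkB-zeta, a nuclear protein that acts with NF-kB at some promoters, and its log2 ratio was 0.31 in 4KR and 0.35 in LGP2 cells as the mean of 2 probes. The brighter NFKBIZ probe had 33.7 at 12 hr and 15.9 at 0 hr in 4KR cells, and 37.9 and 15.5 in LGP2 cells, which is 2.12-fold and 2.45-fold in deposited intensity. The dimmer one had 6.30 and 1.10 in 4KR cells, and 6.40 at 12 hr in LGP2 cells, where the 0 hr value is empty in the deposited table. Both NFKBIZ probes were thus higher at 12 hr in both lines, though one was close to the blank level.

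NFKBIE, which encodes IkB-epsilon, had deposited intensities of 88.1 at 12 hr and 73.6 at 0 hr in 4KR cells, and 97.9 and 70.4 in LGP2 cells. Its log2 ratio was 0.07 and 0.16. In limma NFKBIB rose by 0.38 (SE 0.04, adjusted p = 0.0285) and NFKBIZ by 0.33 (SE 0.03, adjusted p = 0.0263), each higher in 2 of 2 lines, while NFKBIE did not pass (0.11, SE 0.04, adjusted p = 0.168).

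Among the subunit genes, RELB had the largest ratio over both lines. RELB encodes the subunit of the non-canonical NF-kB dimer with p52. Its deposited intensity was 42.5 at 12 hr and 12.8 at 0 hr in 4KR cells, and 49.4 and 12.5 in LGP2 cells, 3.32-fold and 3.96-fold. Both 12 hr arrays were above both 0 hr arrays. On the normalized scale the log2 ratio was 0.71 in 4KR and 0.80 in LGP2 cells, and RELB rose in limma (0.76, SE 0.04, higher in 2 of 2 lines, adjusted p = 0.0229).

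REL, which encodes the activating subunit c-Rel, was read by 2 probes in different parts of the array. The first had deposited intensities of 45.9 at 12 hr and 23.0 at 0 hr in 4KR cells, and 53.4 and 21 in LGP2 cells. The second had 50 and 22.1 in 4KR cells, and 57.2 and 21.9 in LGP2 cells. The probes gave close log2 ratios of 0.44 and 0.55 in 4KR cells and 0.58 and 0.61 in LGP2 cells. REL rose in limma by 0.55 (SE 0.04, higher in 2 of 2 lines, adjusted p = 0.0244).

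NFKB1 encodes p105, the precursor of the p50 subunit, and its lines differed more. Its deposited intensity was 171 at 12 hr and 107 at 0 hr in 4KR cells, and 225 at 12 hr and 83.7 at 0 hr in LGP2 cells. The log2 ratio was 0.44 in 4KR cells and 0.98, just under 2-fold, in LGP2 cells. It was higher at 12 hr in both lines, but NFKB1 did not pass the limma test (0.71, SE 0.15, adjusted p = 0.0732).

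NFKB2 encodes p100, the precursor of p52 and itself an inhibitor of RelB. One probe had deposited intensities of 262 at 12 hr and 224 at 0 hr in 4KR cells, and 237 and 214 in LGP2 cells. The other had 60.3 and 55.8 in 4KR cells, and 68.6 and 54.8 in LGP2 cells. Their log2 ratios, 0.11 and -0.05 in 4KR cells and -0.06 and 0.04 in LGP2 cells, had opposite signs within each line, and the mean ratio was 0.03 and -0.01. RELA encodes p65, the main activating subunit, and its single probe was dim, with 10.1 at 12 hr and 8.60 at 0 hr in 4KR cells, and 12.2 and 9.66 in LGP2 cells. Its log2 ratio was 0.01 in both lines. The annotation lists the RELA probe and both NFKB2 probes against predicted transcripts, so they may not read the main forms of these genes. In limma NFKB2 was at 0.01 (SE 0.03, adjusted p = 0.854) and RELA at 0.01 (SE 0.03, adjusted p = 0.873).

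In all, 6 of the 10 genes passed the limma test in the higher direction and 0 in the lower. Of all 17085 genes tested, 7.94% passed in the higher and 7.28% in the lower direction, so a pass by itself is common on these arrays. With plain subtraction of the background in place of the offset, TNFAIP3 alone passed (limma adjusted p = 0.0135). The other 5 then missed the threshold, with limma adjusted p-values of 0.0634 for RELB, 0.0820 for NFKBIA, 0.0880 for NFKBIZ, 0.0982 for REL and 0.107 for NFKBIB. Over all genes, the passes fell from 1356 to 61 in the higher and from 1244 to 1 in the lower direction. The loss of passes was thus not particular to these 5 genes.

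The consensus site was also searched in the windows of the other genes. That of NFKB2 is shown because it held matches although the gene had a ratio near 0. The window shown lies at chr10:102394328-102394627 on the plus strand of GRCh38.p14, and capitals again mark the matches.
NFKB2: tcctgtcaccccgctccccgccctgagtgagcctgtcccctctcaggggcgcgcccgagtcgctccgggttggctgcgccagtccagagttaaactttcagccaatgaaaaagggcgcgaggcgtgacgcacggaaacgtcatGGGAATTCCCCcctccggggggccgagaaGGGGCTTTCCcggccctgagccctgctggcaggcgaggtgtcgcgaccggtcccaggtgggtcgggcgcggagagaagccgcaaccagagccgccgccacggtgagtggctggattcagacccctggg
NFKB2 has 3 RefSeq start windows, and 2 of them held a match. NFKB1 had 1 match, at -49 to -40 in 1 of its windows, and REL had overlapping matches between -47 and -37. The RELA windows held none. Of the 8 genes with a window in the RefSeq table, 7 had a match in at least 1, against 13.3% of all 27305 genes. Genes with large and with small ratios were both among the 7. The 8 genes do not include NFKBIE and RELB.

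The response of 4KR cells was set against that of LGP2 cells, gene by gene. For 8 of the 10 genes the difference of the log2 ratios (4KR minus LGP2) lay between -0.10 and 0.04, including TNFAIP3 at -0.02, RELB at -0.08 and REL at -0.10. The 2 exceptions were NFKBIA at 0.47 and NFKB1 at -0.54. Differences this large in either direction were present in 1.66% and 1.15% of the 15738 genes. Under the main setting none of the 10 passed 1.5-fold, as 0.451% of genes did in the higher and 0.426% in the lower direction. None passed 2-fold, as 0.0254% and 0.0318% did. With 1 array per group this difference has no test.

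**Figure D2:**
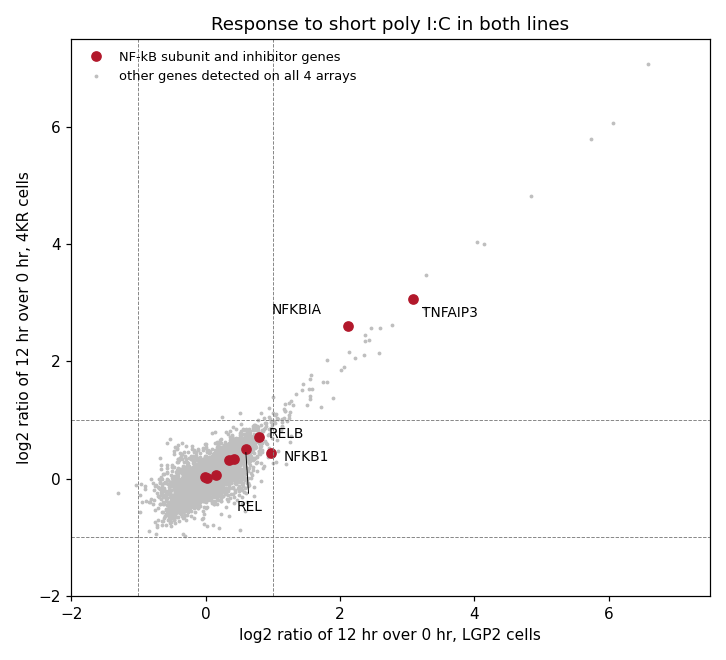
Log2 ratio of 12 hr over 0 hr in 4KR cells (vertical axis) against that in LGP2 cells (horizontal axis), 1 point per gene detected on all 4 arrays, with the 10 genes in red and dashed lines at 2-fold. TNFAIP3 and NFKBIA lie past 2-fold in both lines; NFKBIA lies above and NFKB1 below the course of the other genes.

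Both exceptions have their probe in a block of the array where the responses of many probes differed. NFKBIA lies in block 24, in which the median difference over 836 probes was 0.20, and NFKB1 in block 20, with a median of -0.11 over 863 probes. Over the other blocks that hold these genes, apart from block 21 with a median of -0.14, the medians ran from -0.02 to 0.04. Within its own block, NFKBIA was exceeded in size by 16.6% of probes and NFKB1 by 4.06%. Less these block medians, the differences were 0.27 for NFKBIA and -0.43 for NFKB1. When instead each array was corrected by block medians over all gene probes, undetected ones included, they were 0.35 and -0.48.

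**Figure D3:**
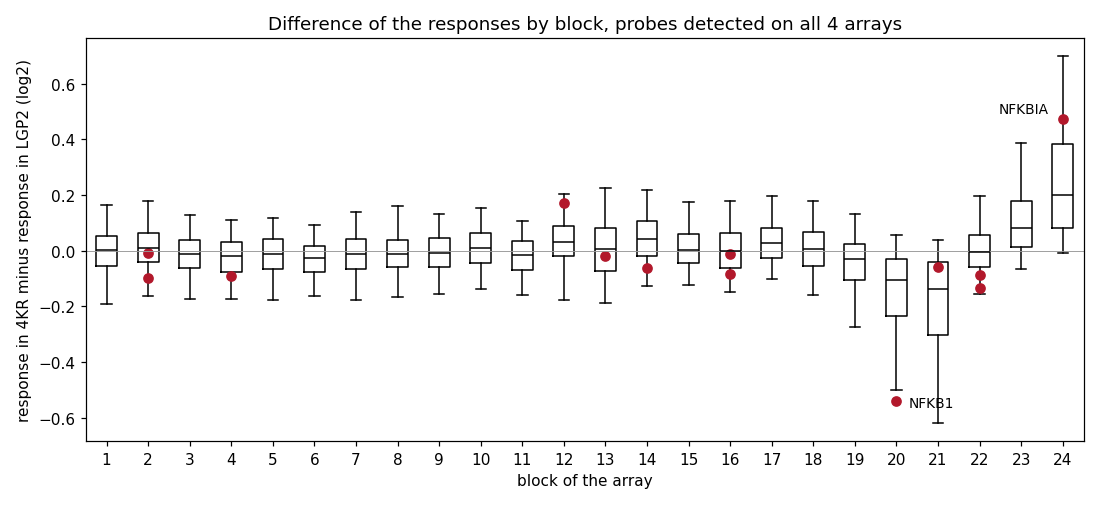
Difference of the log2 responses, 4KR minus LGP2 (vertical axis), of probes detected on all 4 arrays in each of the 24 blocks of the array (horizontal axis). Boxes show the quartiles and median, whiskers the 5th and 95th percentiles, and red points the 13 probes of the 10 genes; NFKBIA and NFKB1 lie in blocks 24 and 20, whose medians are away from 0.

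Compared directly, the lines were close at both times for most of the genes. At 12 hr the log2 ratio of 4KR over LGP2 cells ran from -0.25 for NFKB1 to 0.09 for NFKB2, and NFKBIA, at 0.09, and TNFAIP3, at 0.06, were within that range. At 0 hr it ran from -0.38 for NFKBIA to 0.29 for NFKB1. The larger response of NFKBIA in 4KR cells thus went with a lower level before stimulation, and its levels at 12 hr were close. For NFKB1 the lines differed in opposite directions at the 2 times. These values are not corrected for block, and the NFKBIA and NFKB1 probes lie in blocks where the responses of many probes differed. None of the 10 passed 2-fold at either time. Of all genes, 0.0117% were 2-fold higher and 0% lower in 4KR cells at 12 hr, and 0.0124% and 0.0062% at 0 hr.

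The size of the ratios depended on the processing. With the offset of 50, 2 genes were past 2-fold in each line. With plain subtraction of the background and the same quantile normalization, 4 were in 4KR and 6 in LGP2 cells. The counts over all genes rose too, as given under the dependence on the processing. RELB was then at 1.55 in 4KR and 1.69 in LGP2 cells, NFKBIZ at 1.44 and 1.79, and TNFAIP3 at 4.56 and 4.75. NFKBIA moved less, to 2.79 and 2.26, and RELA stayed near 0 at 0.02 and 0.05. The deposited values differ in background, scaling and logarithm at once, with medians over all genes of 0.14 in 4KR and 0.23 in LGP2 cells. By them 5 and 6 genes were past 2-fold, with REL at 1.05 and 1.33 and NFKB1 at 0.67 and 1.42. TNFAIP3 and NFKBIA were past 2-fold in both lines under every setting in which they were measured, and NFKBIB, NFKBIE, NFKB2 and RELA under none.

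**Figure D4:**
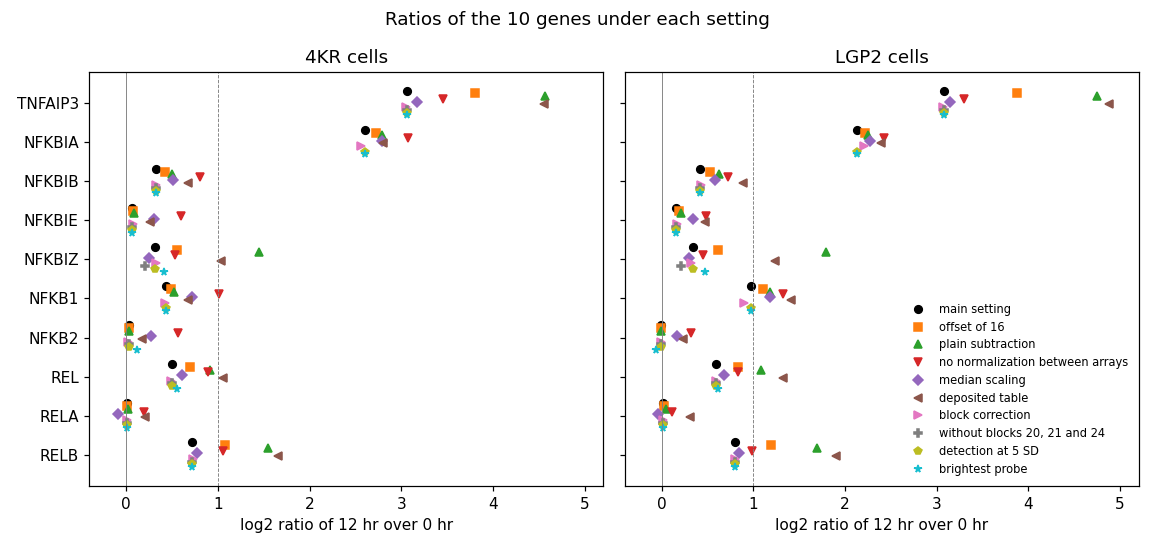
Log2 ratio of 12 hr over 0 hr (horizontal axis) of the 10 genes in 4KR cells (left) and LGP2 cells (right) under the main setting and 9 alternatives, with a dashed line at 2-fold. The symbols of TNFAIP3 and NFKBIA all lie right of the line, those of NFKBIB, NFKBIE, NFKB2 and RELA all left of it, and those of NFKBIZ, NFKB1, REL and RELB on both sides in at least 1 line.

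The rest of the pathway was followed through 5 lists, under the main setting only. The counts past 2-fold use the normalized ratios, in which those of dim genes are smaller than by deposited intensity. Over all genes, 7.94% passed limma in the higher and 7.28% in the lower direction. At least 2-fold higher were 0.411% in 4KR and 0.438% in LGP2 cells. Of 12 genes for IKK and the kinases that activate it, 0 passed 2-fold in either line and 2 rose in limma. Their median log2 ratio was 0.10 in 4KR cells and 0.12 in LGP2 cells. MAP3K8, a kinase that is bound by the NFKB1 product p105, had 0.50 and 0.59 (limma adjusted p = 0.0244). By deposited intensity it was past 2-fold, with 33.3 at 12 hr and 13.2 at 0 hr in 4KR cells, and 37.2 and 12.0 in LGP2 cells. TAB2, an adaptor of the kinase TAK1, had 0.51 in 4KR and 0.25 in LGP2 cells and did not pass (limma adjusted p = 0.0664).

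Of 12 measured adaptors and ubiquitin ligases upstream of IKK, 0 passed 2-fold, the median was -0.06 in both lines, and 2 rose in limma. TRAF6, a ubiquitin ligase of several receptor pathways, was at 0.38 in 4KR and 0.37 in LGP2 cells (limma adjusted p = 0.0247). SHARPIN, a subunit of the linear ubiquitin ligase, was at -0.23 and -0.38 and did not pass (limma adjusted p = 0.0505). TRAF2, RIPK1, BIRC3 and IRAK4 were not analysed here. Of 13 detected further inhibitors and partners of A20, 0 passed 2-fold, the median was 0.00 in 4KR and 0.03 in LGP2 cells, and 1 rose and 1 fell in limma. These counts are near the shares over all genes, 7.94% higher and 7.28% lower, so they say nothing particular about this list. CYLD, a deubiquitinase that limits IKK, rose (0.35 in 4KR and 0.42 in LGP2 cells, limma adjusted p = 0.0253), and COMMD1, which promotes the degradation of RelA, fell (-0.18 and -0.21, limma adjusted p = 0.0438). Among the receptors, 0 of 6 detected in 4KR cells and 0 of 7 in LGP2 cells passed 2-fold. TLR3, an endosomal receptor for double-stranded RNA, was not well above background at 0 hr and was at least 1.09-fold and 1.08-fold higher at 12 hr (limma adjusted p = 0.0426), and NGFR was at -0.18 and -0.08 without passing (limma adjusted p = 0.130).

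Of the known NF-kB target genes, 7 passed 2-fold in each line, of 25 detected in 4KR and 24 in LGP2 cells, and 12 of 25 rose in limma. The median log2 ratio was 0.16 in 4KR and 0.19 in LGP2 cells, or 0.16 and 0.14 with genes that were not well above background at 0 hr taken at their lower bound. CXCL8, a neutrophil-attracting chemokine, was at 3.48 and 3.29, and CXCL2, a related chemokine, at 2.58 and 2.59. IRF1, a transcription factor, was at 1.65 and 1.80, IER3, an early response gene, at 1.53 and 1.58, and PTGS2, the inducible cyclooxygenase, at 1.19 and 1.16. CXCL10 and CCL5, chemokines also driven by interferon signalling, were not well above background at 0 hr and were at least 34.4-fold and 14.6-fold higher in 4KR cells, and 31.5-fold and 13.7-fold in LGP2 cells. By the normalized ratios the list held a minority of genes with large ratios, as the 10 subunit and inhibitor genes did. Dim genes of the list had larger ratios by deposited intensity, as given for some under the other observations. Some dim genes with normalized ratios near 0, such as LTB and PLAU, also had raised deposited ratios. A raised deposited ratio of a dim gene therefore does not by itself show a response.

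The genes whose levels over the 4 arrays lay nearest to those of TNFAIP3 were IFI44L, CXCL8, IFI6, CXCL2 and GADD45B, at distances of 0.26 to 0.64 on the log2 scale after each gene was centred on its mean. Those nearest to NFKBIA were IFIH1, OR9I1, EGR1, CXCL2 and IFITM1, at 0.30 to 0.40. These distances rest on 4 arrays over 15738 genes and describe only that the genes had ratios of about the same size.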

How the data were processed

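Total RNA from 4 HEK293 cultures was amplified, labelled with Cy5 and hybridised to 1-colour arrays, per the labels' protocols. Per the file headers, the deposited scanner tables hold median spot intensity on a linear scale, not normalized. The authors' deposited series table holds intensity too, with a median of 25 per array. It follows the spot median less about the mean blank spot, and its making is not stated in the labels or headers.

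From the scanner intensity, the mean of 384 blank spots was taken as background, corrected by normexp with an offset of 50, quantile normalized and put on the log2 scale with limma 3.58.1 in R 4.3.3. Probes of a gene were averaged, and 1 rejected probe was left out. Symbols came from the platform annotation (21707 probes named, 2753 not), updated through RefSeq. A probe counted as detected above the blank mean plus 2 SD. Genes detected on the brighter array of a pair were called past 2-fold, and the difference of the responses over genes detected on all 4. A lower bound sets the level at 12 hr against the higher of the lowest detected probe at 0 hr and the gene's own level. The limma fit had line and time as terms, over genes detected on at least 1 array, with 3.27 degrees of freedom after moderation. It was tested on simulated data with independent noise of equal SD for all genes, without line effects or block shifts. That checks the calculation and not how far the calls hold on these arrays. The number of arrays limits the precision, and p-values measure only the spread between these arrays.

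Named were all 10 genes and DHX58, the genes of each list past 2-fold in either line or otherwise the 2 with the largest mean ratio, and the 5 genes nearest to each member past 2-fold. The genes, lists and tests were chosen with earlier results of these data known. The alternatives were another offset (16), plain subtraction, other or no scaling between arrays, the deposited table with log2(value + 1), block correction, blocks left out, a stricter detection limit, the brightest probe, a ratio of 1.5-fold, and 3 other limma settings.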

Additional observations from a re-analysis of the deposited data

Results flagged for a closer look

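NFKB2 was the only one of the 10 genes with ratios of opposite sign in the 2 lines, with a log2 ratio of 0.0327 in 4KR cells and -0.00952 in LGP2 cells. The difference was not tested, both values are near 0, and the 2 NFKB2 probes had opposite signs within each line.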

How the results depend on the processing

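The limma fit paired 12 hr with 0 hr through the line; without the line as a term it passed 7 members, NFKB1 being the one added (limma adjusted p = 0.0370). Leaving out a line leaves the other line's ratio, given above. The members at least 2-fold higher, 2 in each line, numbered 4 in 4KR and 6 in LGP2 cells with plain subtraction, and 5 and 6 by the deposited values. They numbered 4 in 4KR cells with no normalization between arrays, 4 in LGP2 cells with an offset of 16, and 5 in LGP2 cells at 1.5-fold. Without blocks 20, 21 and 24 there was 1 in each line, since NFKBIA and NFKB1 then have no probe. All genes at least 2-fold higher, 68 in 4KR and 73 in LGP2 cells, numbered 382 and 492 with plain subtraction, 418 and 177 with no normalization, 324 and 595 in the deposited table, and 263 and 313 at 1.5-fold. They were 109 in 4KR cells with median scaling and 119 in LGP2 cells with an offset of 16. The limma test, with 6 members higher, passed 1 with plain subtraction, TNFAIP3. Of all genes it passed 1356 higher and 1244 lower, against 61 and 1 with plain subtraction, 6927 and 21 with no normalization, 4036 and 3290 with median scaling and 3121 and 223 in the deposited table, and 2172 lower without the 3 blocks. The cause was not tested.

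With no normalization the median over all genes was 0.28 in 4KR cells and 0.13 in LGP2 cells. In each line, 9 of the 10 members were above it. NFKB1 passed limma in 6 of 11 alternatives, NFKBIE and NFKB2 in 2 of 12 each and RELA in 0 of 12. Over all genes, the passes in the higher direction ranged from 61 to 6927 between alternatives. These tallies therefore mix strict and permissive settings and do not measure how firm a call is. The NFKBIA difference ran from 0.35 to 0.65 over the settings and that of NFKB1 from -0.74 to -0.32. NFKB1 was thus past 1.5-fold with an offset of 16 (-0.61), plain subtraction (-0.66) and the deposited values (-0.74). NFKBIA was past 1.5-fold with no normalization (0.65, or 0.52 relative to the median over all genes). The share of all genes past 1.5-fold in this difference was counted under the main setting only. How common such a difference was under these alternatives is therefore not given. With no normalization the median difference over all genes was 0.13, and relative to it TNFAIP3 was at 0.02 while the other 9 members kept their sign. Counts of genes past 2-fold in the difference of the responses, 4 higher and 5 lower, reached 118 with plain subtraction and 88 by the deposited values. Those between the lines, 2 or fewer in each direction, reached 174, and those 2-fold lower at 12 hr reached 97 in 4KR and 162 in LGP2 cells, all with plain subtraction. None of these settings put a member past 2-fold in a comparison of the lines or of their responses. The dimmer NFKBIZ probe was closest to the blank level, and the NFKBIZ ratio ran from 0.20 to 1.44 in 4KR and from 0.22 to 1.79 in LGP2 cells over the settings.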

Other observations

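Among the known NF-kB target genes under 2-fold by the normalized ratio, 5 rose in limma over both lines, named here after their values were seen. CCL20, a chemokine for lymphocytes, was not well above background at 0 hr in 4KR cells, where it was at least 1.56-fold higher at 12 hr. In LGP2 cells it had a log2 ratio of 0.65 (limma adjusted p = 0.0235 over both lines). The LGP2 deposited intensities of CCL20 were 21.1 at 12 hr and 1.61 at 0 hr. CCL2, a chemokine for monocytes, was at 0.56 in 4KR and 0.73 in LGP2 cells (limma adjusted p = 0.0253). By deposited intensity it had 22.8 at 12 hr and 5.30 at 0 hr in 4KR cells, and 27.9 and 3.61 in LGP2 cells. CD83, a surface protein of activated immune cells, was at 0.68 in 4KR and 0.74 in LGP2 cells (limma adjusted p = 0.0217) and CXCL3 at 0.40 in both lines (limma adjusted p = 0.0244). CD83 had deposited intensities of 55.4 at 12 hr and 20.9 at 0 hr in 4KR cells, and 63.4 and 21.3 in LGP2 cells. CXCL3 had 31.2 and 14.6 in 4KR cells, and 30.6 and 13.1 in LGP2 cells. TNF was not well above background at 0 hr in either line and was at least 1.08-fold higher in 4KR and 1.07-fold in LGP2 cells at 12 hr (limma adjusted p = 0.0359). IL6, a cytokine, was at -0.01 in both lines, but its normalized log2 intensity was only 5.79 to 5.80 on the 4 arrays. That is close to the background, so the IL6 ratio says little about a response. ICAM1 and SELE, adhesion molecules, were not well above background on any of the 4 arrays, with normalized log2 intensities of at most 5.75 and 5.74. SOD2, a mitochondrial antioxidant enzyme often used as a marker of NF-kB activity, was at -0.13 in 4KR and 0.08 in LGP2 cells, with a bright signal on all 4 arrays.

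OR9I1, annotated as an olfactory receptor gene, was among the genes nearest to NFKBIA, with log2 ratios of 2.17 in 4KR and 2.13 in LGP2 cells.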
